A study of Mus musculus with 6 samples.

Results

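The receptor genes and kinase genes that carry the IL-4 and IL-13 signal were examined in 6 ChIP-seq peak lists from mouse macrophages. The genes were Il4ra, Il2rg, Il13ra1 and Il13ra2, which encode the chains of the receptors, and Jak1, Jak2, Jak3 and Tyk2, which encode the 4 Janus kinases. Their members in the data were all peaks that the deposited annotation assigned to one of these 8 genes as the nearest gene. There were 102 such peaks of 134964 in all lists. Peaks that touched, in whichever list, were joined into regions, which gave 51 regions for the 8 genes of 60847 in all. Of the genes, 6 had at least 1 peak, and Il13ra2 and Jak3 had none in any list.

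The cells were bone marrow-derived macrophages (BMDMs), primary macrophages grown from the marrow of wild-type mice aged 8 to 12 weeks, on the C57BL/6 background by the study's methods. They were differentiated for 6 days with L929 supernatant, a source of macrophage colony-stimulating factor. Control cells received no IL-4, and the other cells received IL-4 at 20 ng/ml for 1 h. After cross-linking with DSG and formaldehyde, chromatin was immunoprecipitated for C/EBPα, for IRF8 or for JUNB. Each factor and condition was 1 sample, so there was no replicate, no spread between replicates and no test between conditions. The values describe these 6 libraries, and sequencing depth was unknown. The labels name 2 library kits without saying which served which sample, so depth and kit cannot be told apart from IL-4. Chromatin came from a pool of cells, and binding in fewer cells cannot be told apart from weaker binding in each cell. Peaks were named for 6 of 8 macrophage marker symbols, for 2 of 5 T cell markers and for 4 of 5 B cell markers. The 8 include Emr1 and Adgre1, an older and a newer symbol of the same gene, and its peaks were named Emr1. No peak carried the symbol Spi1, and older symbols of that gene were not searched. A peak does not show that a gene was expressed.

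IL-4 binds the IL-4 receptor alpha chain, the product of Il4ra. In the type I receptor this chain pairs with the common gamma chain from Il2rg, and in the type II receptor it pairs with the product of Il13ra1, which also lets IL-13 signal. The product of Il13ra2 binds IL-13 strongly and is known as a decoy receptor. The chains carry no kinase of their own. JAK1 sits on IL-4 receptor alpha, JAK3 on the common gamma chain, and TYK2 or JAK2 on the IL-13 receptor alpha 1 chain. The kinases phosphorylate the receptor and then STAT6, which moves to the nucleus and binds DNA. C/EBPα and IRF8 are transcription factors of the myeloid lineage, and JUNB is a subunit of the AP-1 factor. The data ask where these 3 factors lay around the genes of the receptor that IL-4 itself engages, and whether the peak lists differed after 1 h.

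Sequences are shown for the 9 regions that the results turn on. They are the region with a peak of both C/EBPα and IRF8 after IL-4 only, the region where both scores rose past 2-fold, the region with all 3 factors, the IRF8-bound Jak2 promoter, and strong regions of Il4ra, Il13ra1, Jak1 and Tyk2. Each line gives 200 bases around the region centre, read from the RefSeq copy of GRCm38, the assembly that mm10 names, forward strand, 5′ to 3′. Capitals mark exact matches to 4 motifs, each searched on both strands. These were the STAT6-type motif (TTC, 3 or 4 bases, GAA), the AP-1 motif (TGA, C or G, TCA), the C/EBP motif (TTGC, 2 bases, AA) and the PU.1-IRF composite motif (GGAA, 2 bases, GAAA). An IRF repeat (GAAA, 2 bases, GAAA), was also searched and had no match in these 9 windows. A kb value is the distance of the region from the start site of its gene, with minus for upstream.
Jak2 −12.1 kb: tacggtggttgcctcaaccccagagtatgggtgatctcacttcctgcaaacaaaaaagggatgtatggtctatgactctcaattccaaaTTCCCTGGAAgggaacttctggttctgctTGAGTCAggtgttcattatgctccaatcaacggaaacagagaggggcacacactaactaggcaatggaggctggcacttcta
Jak2 −41.7 kb: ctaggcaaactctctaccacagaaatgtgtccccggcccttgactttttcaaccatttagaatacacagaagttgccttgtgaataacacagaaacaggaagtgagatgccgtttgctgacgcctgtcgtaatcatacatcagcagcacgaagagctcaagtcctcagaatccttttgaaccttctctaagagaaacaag
Jak2 −0.5 kb: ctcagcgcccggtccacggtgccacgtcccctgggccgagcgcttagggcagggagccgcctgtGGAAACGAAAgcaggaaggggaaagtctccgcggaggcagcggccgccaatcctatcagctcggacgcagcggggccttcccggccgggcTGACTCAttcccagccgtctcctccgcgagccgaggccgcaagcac
Il4ra −1.0 kb: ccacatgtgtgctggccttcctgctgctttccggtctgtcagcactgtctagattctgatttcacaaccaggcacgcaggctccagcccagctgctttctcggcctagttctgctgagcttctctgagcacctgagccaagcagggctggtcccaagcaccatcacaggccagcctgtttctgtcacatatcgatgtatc
Il4ra +3.4 kb: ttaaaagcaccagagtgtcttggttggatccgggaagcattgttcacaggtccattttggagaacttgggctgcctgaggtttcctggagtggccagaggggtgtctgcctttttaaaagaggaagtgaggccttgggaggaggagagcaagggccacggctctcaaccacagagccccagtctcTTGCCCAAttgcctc
Il13ra1 −60.2 kb: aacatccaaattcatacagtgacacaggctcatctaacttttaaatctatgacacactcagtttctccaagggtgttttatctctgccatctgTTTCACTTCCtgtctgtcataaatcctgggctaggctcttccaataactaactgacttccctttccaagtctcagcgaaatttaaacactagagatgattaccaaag
Il13ra1 +17.6 kb: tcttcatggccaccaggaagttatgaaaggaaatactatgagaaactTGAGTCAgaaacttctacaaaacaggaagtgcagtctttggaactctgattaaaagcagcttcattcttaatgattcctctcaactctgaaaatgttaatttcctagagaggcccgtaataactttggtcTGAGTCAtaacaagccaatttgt
Jak1 +82.4 kb: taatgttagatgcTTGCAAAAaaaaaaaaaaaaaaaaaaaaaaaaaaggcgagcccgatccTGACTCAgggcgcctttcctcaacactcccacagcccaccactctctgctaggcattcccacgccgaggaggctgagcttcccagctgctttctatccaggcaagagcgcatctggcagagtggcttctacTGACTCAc
Tyk2 +5.5 kb: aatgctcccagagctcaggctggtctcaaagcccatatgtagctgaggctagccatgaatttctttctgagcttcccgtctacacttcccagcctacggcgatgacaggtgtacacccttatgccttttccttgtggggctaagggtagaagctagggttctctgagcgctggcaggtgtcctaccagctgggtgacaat

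The windows lie at chr19:29239634-29239833 (Jak2 −12.1 kb), chr19:29209993-29210192 (Jak2 −41.7 kb), chr19:29251179-29251378 (Jak2 −0.5 kb), chr7:125551192-125551391 (Il4ra −1.0 kb), chr7:125555583-125555782 (Il4ra +3.4 kb), chrX:36051876-36052075 (Il13ra1 −60.2 kb), chrX:36129657-36129856 (Il13ra1 +17.6 kb), chr4:101182764-101182963 (Jak1 +82.4 kb), chr9:21125611-21125810 (Tyk2 +5.5 kb). The 3 Jak2 windows, the Il4ra window at −1.0 kb and the Il13ra1 window at −60.2 kb are outside the body of their gene, and the other 4 are in introns of it. The Il13ra1 window at −60.2 kb is in an intron of the neighbouring gene Dock11. Capitals in the Jak2 window at −12.1 kb are a STAT6-type match, TTCCCTGGAA, with 4 bases between its arms, and an AP-1 match, TGAGTCA. The Jak2 promoter window holds a PU.1-IRF match, GGAAACGAAA, and an AP-1 match. The Il13ra1 window at −60.2 kb holds a PU.1-IRF match on the reverse strand, TTTCACTTCC. The Il13ra1 window at +17.6 kb, the region with all 3 factors, holds 2 AP-1 matches. The Jak1 window holds 2 AP-1 matches and a C/EBP match, TTGCAAAA, and the Il4ra window at +3.4 kb holds a C/EBP match, TTGCCCAA. No motif of the 5 was matched in the Jak2 window at −41.7 kb, the Il4ra window at −1.0 kb or the Tyk2 window, which says only that these letters are not in those 200 bases.

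The peaks were spread unequally over the genes and the factors. C/EBPα had 18 peaks at the 8 genes in control and 20 after IL-4, of 24486 and 24612 in the lists. IRF8 had 34 in control and 29 after IL-4, of 37525 and 42076. JUNB had 1 in control and 0 after IL-4, of 3940 and 2325. The IRF8 list thus grew after IL-4 while the number of IRF8 peaks at these genes was lower, and the difference lay mostly at 1 gene, Il13ra1, which went from 12 peaks to 5.

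By gene, Jak1 had 7 C/EBPα peaks in control and 5 with IL-4, and 9 and 11 IRF8 peaks. Jak2 had 3 and 5 C/EBPα peaks and 6 and 9 IRF8 peaks. Il4ra had 3 and 4 C/EBPα peaks and 3 IRF8 peaks in each condition. Jak2 was thus the gene with more peaks of both factors after IL-4. Il13ra1 had 4 and 5 C/EBPα peaks, with the IRF8 peaks given above. Tyk2 had 1 C/EBPα peak in each condition and 3 and 1 IRF8 peaks, and Il2rg had a single IRF8 peak in control. Among the 12167 genes with an IRF8 peak in control, the median was 2 peaks a gene and 362 had at least as many as the 12 of Il13ra1. The number of peaks depends on the length of the locus and the distance to the next gene.

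**Figure D1:**
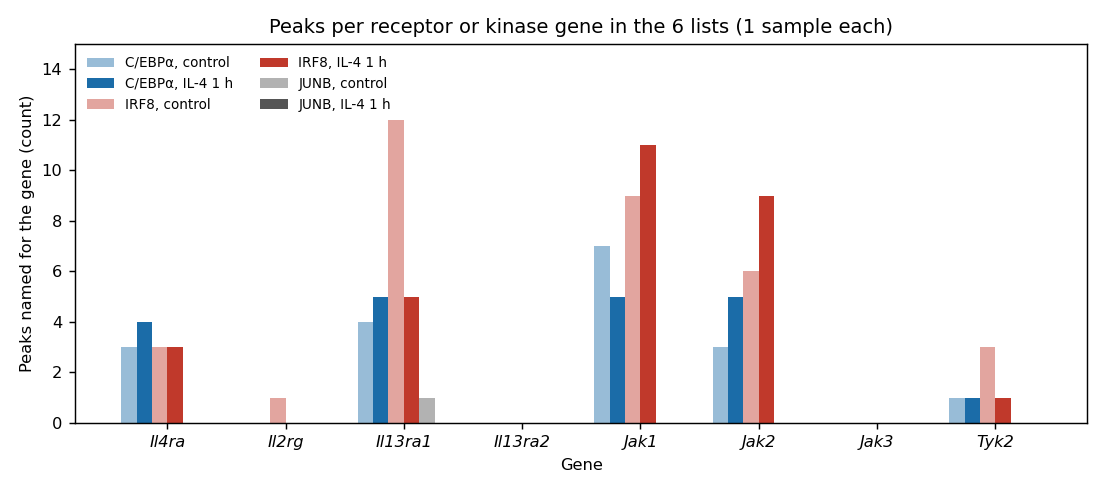
Number of peaks (vertical axis) that the deposited annotation named for each of the 8 genes (horizontal axis) in the 6 lists, with pale bars for control and full bars for IL-4, 1 sample each. IRF8 at Il13ra1 goes from 12 to 5 peaks, Jak2 has more peaks of C/EBPα (3 and 5) and IRF8 (6 and 9) after IL-4, and Il13ra2 and Jak3 have no bar.

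Most regions were away from promoters. Of the 51 regions, 27 were in an intron, 21 were intergenic and 3 (5.88%) were called promoter by the annotation, against 9.01% of all regions. The median distance from the start site was 17592 bp, against 19446.5 bp over all regions. Both factors, C/EBPα and IRF8, had a peak in 13 regions (25.5%, against 30.7% of all regions). IRF8 without C/EBPα was found in 29 regions (56.9%, against 50.9%) and C/EBPα without IRF8 in 9 (17.6%, against 17.7%). JUNB was in 1 region (1.96%, against 7.90%). For 1 region of 51 the Wilson 95% interval was 0.347% to 10.3%, so the JUNB share was not separable from that of all regions. Such an interval counts regions of these libraries and does not cover differences between cultures.

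**Figure D2:**
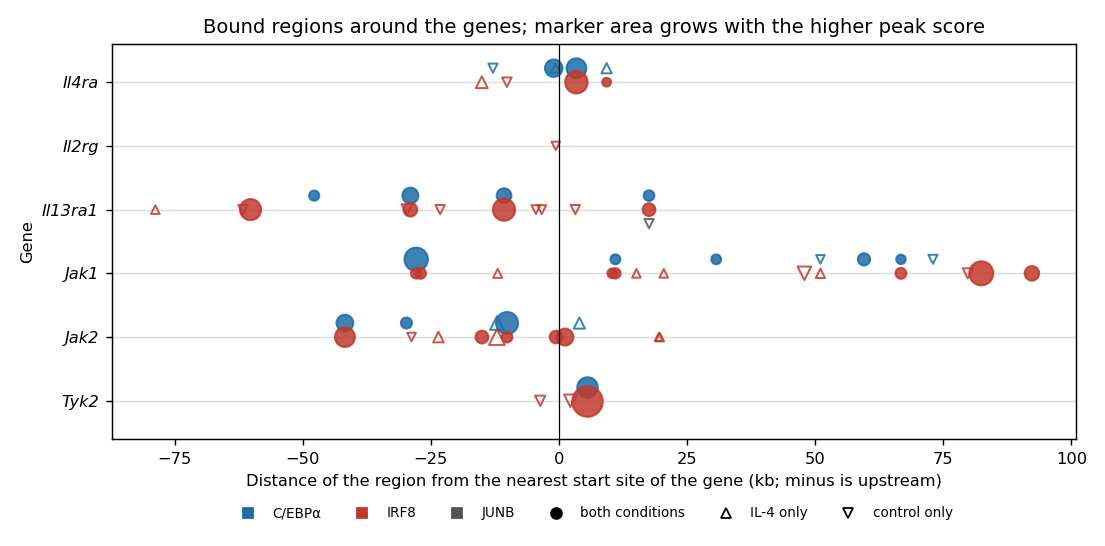
Position of every bound region of the 6 genes with a peak, as distance in kb from the start site of the gene, with C/EBPα in blue, IRF8 in red and JUNB in grey. Filled circles had a peak in both conditions, open upward triangles after IL-4 only and open downward triangles in control only, and marker area grows with the higher score. Few regions lie at 0 kb, Il13ra1 carries 6 open downward IRF8 triangles, and the largest marker is the Tyk2 region at +5.5 kb.

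Il4ra encodes the chain that both receptor types share. It had 7 regions, from −15.0 kb to +9.3 kb of its start site on the forward strand of chr7. The strongest was in the first intron, at +3.4 kb (chr7:125555405-125555962). Its C/EBPα score, the deposited score of the peak caller, went from 48.23 in control to 31.9 with IL-4, whereas its IRF8 score went from 49.07 to 64.2. The C/EBPα score was thus 0.661 of control and the IRF8 score 1.31 of control, neither past 2-fold. The score has no stated unit, and how it varies with depth was not tested.

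Just upstream of the start site lay a C/EBPα region with no IRF8 peak, at −1.0 kb (chr7:125551073-125551512). It scored 32.6 in control and 36.36 after IL-4, a ratio of 1.12. The annotation called this peak promoter in the control list and intergenic in the IL-4 list, since the peak borders differed. A weak C/EBPα peak at −0.7 kb, called promoter, was listed after IL-4 only, with a score of 4.66. No IRF8 or JUNB peak was listed within 2000 bp of the Il4ra start site.

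At +9.3 kb, also in the first intron, C/EBPα was listed after IL-4 only, with a score of 8.45, beside an IRF8 peak that scored 4.52 in control and 3.2 after IL-4. The remaining 3 regions were upstream and had 1 peak each. IRF8 scored 13 at −15.0 kb after IL-4 only, on a MurERV4 retroviral repeat. In control only, C/EBPα scored 5.51 at −12.9 kb and IRF8 scored 6.31 at −10.1 kb. The windows at +9.3 kb and at −12.9 kb each held a STAT6-type match, TTCTGGGAA and TTCAGAGAA. C/EBPα was listed after IL-4 only in the first region and in control only in the other. When the window at +9.3 kb was centred on the highest peak and not on the region, its match fell outside.

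The Il4ra locus adjoins Il21r, another receptor chain that pairs with the common gamma chain. Of the 21 regions within 50 kb of an Il4ra start site, 7 were named for Il4ra, 10 for Il21r and 4 for Nsmce1. The strongest of the others was an Il21r region with an IRF8 score of 142.63 in control. The naming by nearest start site therefore leaves most of the bound regions around Il4ra with its neighbours. In their highest score per list, the 3 genes nearest to Il4ra among 14929 were Ccnd1 (distance 0.257 on the log2(1 + score) scale over the 6 lists), Arhgap32 (0.263) and Slc30a5 (0.315).

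Il2rg, for the common gamma chain, was nearly empty. Its single region was an IRF8 peak at −0.6 kb, called promoter (chrX:101268730-101268884) and inside a GENCODE intron of Gm20489, with a score of 3.57 in control and none after IL-4. A score that low ranked 34586 of the 37525 IRF8 control peaks. Jak3, whose product sits on the common gamma chain, had no peak named for it, and the 2 regions within 50 kb of its start sites were named for Glt25d1, with scores of at most 7.84. Il13ra2, the decoy receptor gene, had no peak named for it and no region within 50 kb of a start site. An empty locus means that no peak reached the caller's limit at this unknown depth.

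Il13ra1, which completes the type II receptor, had 12 regions, 11 of them with IRF8. Its strongest IRF8 regions changed little. At −60.2 kb, in the Dock11 intron, IRF8 scored 56.12 in control and 49.52 after IL-4. At −10.7 kb (chrX:36100879-36101720), IRF8 scored 62.57 and 62.91, while C/EBPα scored 24.07 in control and 14.98 after IL-4. This region chained several peaks over 842 bp. In control the C/EBPα peak (chrX:36100879-36101202) shared no base with that IRF8 peak (chrX:36101371-36101720). It overlapped a weaker IRF8 control peak, with a score of 7.77. After IL-4 the C/EBPα peak (chrX:36100881-36101182) and the IRF8 peak (chrX:36101164-36101704) overlapped only at their ends. At −29.0 kb, C/EBPα scored 29.55 and 28.73, and IRF8 scored 19.83 and 20.27.

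The IRF8 peaks that were missing after IL-4 were weak ones. IRF8 was listed in control only at 6 Il13ra1 regions, with scores of 5.93 at −61.6 kb, 9.84 at −29.6 kb, 5.71 at −23.2 kb, 4.52 at −4.5 kb, 4.77 at −3.3 kb and 5.71 at +3.2 kb. It was listed after IL-4 only at −78.7 kb, with a score of 3.97. The 12 control peaks lay in 10 regions, since 2 regions held a pair of control peaks where the IL-4 list had 1 wider peak. Part of the fall from 12 to 5 peaks is therefore this splitting. By region, 4 were bound by IRF8 in both conditions, 6 in control only and 1 after IL-4 only.

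The second intron of Il13ra1 held the region with all 3 factors, at +17.6 kb (chrX:36129394-36130121). C/EBPα scored 9.65 in control and 8.05 after IL-4, and IRF8 scored 15.26 and 16.66. JUNB scored 5.73 in control and was not listed after IL-4. This was the JUNB peak of the 8 genes, in the window with 2 AP-1 matches shown above. Among all 4807 regions with JUNB, 51.9% had it in control only, 29.5% in both conditions and 18.6% after IL-4 only, so a JUNB peak in control only was the commonest outcome. The fourth C/EBPα region of the gene, at −47.7 kb, scored 8.15 and 6.

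Jak1, for the kinase on IL-4 receptor alpha, had 16 regions on the reverse strand of chr4, 13 of them in its introns and 9 in the first. The strongest C/EBPα region was upstream, at −27.8 kb (chr4:101292559-101293518), on a CpG island by the annotation and in a GENCODE intron of Gm12796. C/EBPα scored 60.13 in control and 70.73 after IL-4 there, the highest C/EBPα score at the 8 genes, and IRF8 scored 6.73 and 9.18. In control the IRF8 peak (chr4:101292694-101292917) and the C/EBPα peak (chr4:101292986-101293518) shared no base. They were joined into a region by the IL-4 peaks, which overlapped. Among the peaks named for Jak1, IRF8 was instead strongest in the fifth intron, at +82.4 kb (chr4:101182547-101183182). It scored 53.47 in control and 74.46 after IL-4 there, with no C/EBPα peak in either condition. C/EBPα and IRF8 thus had their strongest peaks named for Jak1 in different parts of the locus. Of the 20 regions within 50 kb of a Jak1 start site, 16 were named for Jak1. The strongest of the others was named for Raver2, with an IRF8 score of 145 after IL-4.

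At Jak1, 2 regions passed a 2-fold rise in IRF8 score, both from low values. At +66.7 kb IRF8 scored 3.3 in control and 10.25 after IL-4, while C/EBPα scored 4.59 and 6.24. The IRF8 score was 3.11 times control, at percentile 96.9 of all regions with IRF8 in both conditions. Its control peak dropped out, and the call with it, when a score of at least 5 was required. At −27.0 kb, on the same CpG island annotation, IRF8 scored 5.09 and 10.3. The only 2-fold fall in C/EBPα score at the 8 genes was at +30.7 kb, from 7.07 to 2.44, 0.345 of control and at percentile 1.36. Its IL-4 peak was so weak that it dropped out, and the call with it, when a score of at least 5 was required or the lists were brought to equal length. The control-only IRF8 peak at +47.9 kb had a score of 19.3, the highest score of any peak at the 8 genes that was in 1 condition only and in control, and its window held a PU.1-IRF match, GGAAATGAAA. At +51.0 kb the factors were exchanged, with C/EBPα in control only (3.81) and IRF8 after IL-4 only (5.63).

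The other Jak1 regions were weaker or varied less. IRF8 scored 23.44 and 14.61 at +92.3 kb, and 6.51 and 5.54 at +10.4 kb. C/EBPα scored 10.79 and 14.85 at +59.5 kb. At +11.0 kb C/EBPα scored 4.63 and 7.54, and IRF8 scored 9 and 9.08. In 1 condition only, IRF8 was listed in control at +79.8 kb (7.74) and after IL-4 at +20.5 kb (3.87), +15.1 kb (4.02) and −11.9 kb (4.99), and C/EBPα in control at +73.0 kb (5.18).

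Jak2, for a kinase of the type II receptor, had the region where both factors passed a 2-fold higher score. At −41.7 kb (chr19:29209907-29210280) C/EBPα scored 13.13 in control and 32.92 after IL-4, and IRF8 scored 23.46 and 49.12. The ratios were 2.51 and 2.09, at percentiles 96.0 and 90.1 of all regions with a peak of the factor in both conditions. This was 1 of the 10 regions of these genes with both factors in both conditions, and 1.97% of the 10821 such regions in all passed 2-fold upward for both factors.

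At −12.1 kb (chr19:29239542-29239927) neither factor had a peak in control, and after IL-4 C/EBPα scored 19.65 and IRF8 28.25. These were the highest scores of any peak at the 8 genes that was listed after IL-4 only. Of the 13 regions of these genes with both factors, this was the 1 that both factors had after IL-4 only, against 4.02% of the 18681 such regions in all. The region lies on an MLT1O retroviral repeat, and its window holds the STAT6-type match shown above near the centre, at bases 90 to 99 of 200. Among the 751 regions of the genome that both factors had after IL-4 only, 380 (50.6%) held a STAT6-type match in the same window, against 14.4% of all regions. JUNB had no peak there, although the window also holds an AP-1 match.

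The strongest C/EBPα region of Jak2, at −10.1 kb, scored 61.86 in control and 53.03 after IL-4, and IRF8 there scored 5.69 and 9.95. The promoter region at −0.5 kb (chr19:29251128-29251431) had IRF8 only, with 14.68 in control and 16.32 after IL-4. In the second intron at +1.2 kb IRF8 scored 23.78 and 34.04. The Jak2 start site was therefore flanked by IRF8 in both conditions and had no C/EBPα peak within 2000 bp. C/EBPα was listed after IL-4 only at +4.0 kb, with a score of 11.1.

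Of the remaining Jak2 regions, C/EBPα scored 10.82 and 6 at −29.7 kb, and IRF8 scored 14.65 and 16.59 at −15.0 kb. IRF8 was listed in control only at −28.7 kb (4.16), and after IL-4 only at −23.5 kb (9.43), +19.5 kb (2.14) and +19.7 kb (3.97). The window at −23.5 kb held a STAT6-type match, TTCTCAGAA, and that at +1.2 kb held TTCCCTGAA. By region, IRF8 of Jak2 was in both conditions at 5, after IL-4 only at 4 and in control only at 1, and C/EBPα at 3, 2 and 0.

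**Figure D3:**
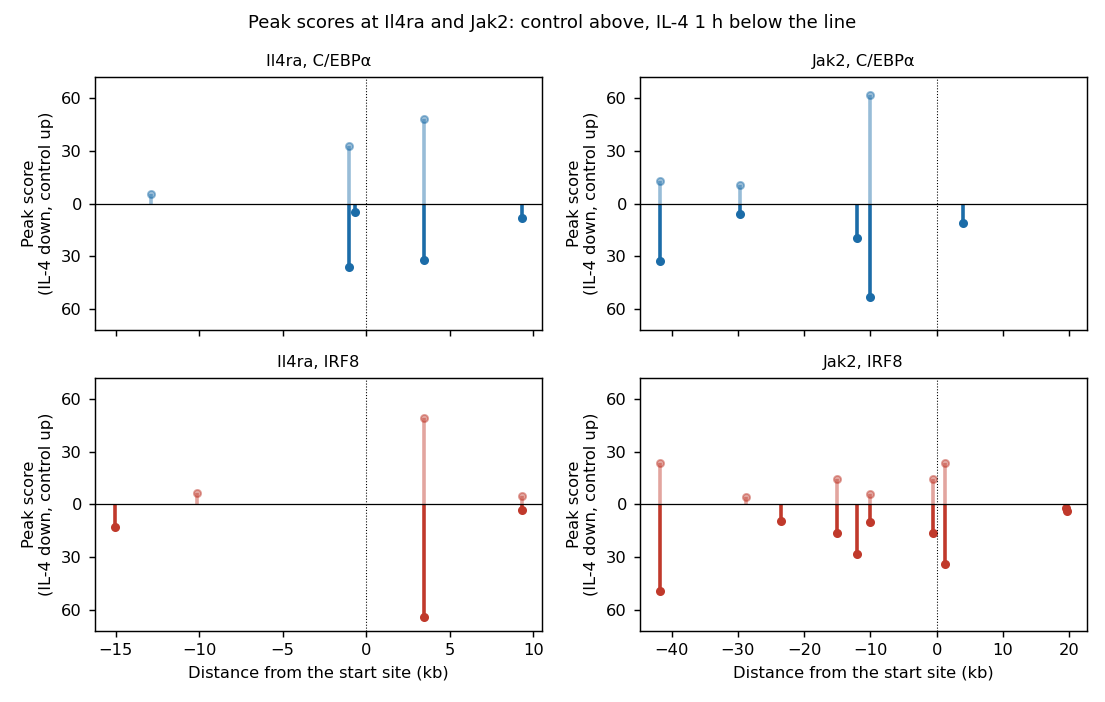
Peak scores at Il4ra (left) and Jak2 (right) by distance from the start site in kb, for C/EBPα (blue, top) and IRF8 (red, bottom), with control scores drawn upward and IL-4 scores downward, 1 sample each. At Jak2 the lines at −41.7 kb are longer after IL-4 for both factors (13.13 to 32.92 and 23.46 to 49.12) and those at −12.1 kb point downward only; at Il4ra +3.4 kb C/EBPα is shorter (48.23 to 31.9) and IRF8 longer (49.07 to 64.2) after IL-4.

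Tyk2, for the other kinase of the type II receptor, had 3 regions and the strongest peak named for any of the 8 genes. In the third intron of the gene, where GENCODE also places 1700084C06Rik, at +5.5 kb (chr9:21125377-21126046), IRF8 scored 103.52 in control and 124.36 after IL-4, and C/EBPα scored 52.32 and 35.52. The IRF8 peak ranked 1080 of 42076 in the IL-4 list, in the top 2.57%. IRF8 was listed in control only at +2.2 kb, with a score of 15.53, and at −3.6 kb, with 8.36. The annotation called the −3.6 kb region intergenic, but GENCODE placed its centre in an untranslated region of the neighbouring gene Cdc37. The strong intronic region was thus listed in both conditions and the 2 weaker ones, nearer to the start site, in control only.

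Over the 8 genes, C/EBPα had a peak in both conditions at 15 of 22 regions (68.2%, Wilson 95% interval 47.3% to 83.6%), against 64.8% of all regions with C/EBPα. It was listed after IL-4 only at 4, against 17.9% of all, and in control only at 3, against 17.4%. These shares were close to those of all regions. IRF8 had a peak in both conditions at 19 of 42 regions (45.2%, interval 31.2% to 60.1%), against 58.6%, after IL-4 only at 10 (23.8%), against 25.5%, and in control only at 13 (31.0%, interval 19.1% to 46.0%), against 15.9%. The control-only share was the one whose interval left out the value of all regions. Of the 13, 6 were at Il13ra1. At the other genes together the control-only share was 7 of 31 (22.6%, interval 11.4% to 39.8%). This was still above the 15.9% of all regions, but its interval took that value in. The intervals treat regions as independent, which regions of 1 gene are not.

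**Figure D4:**
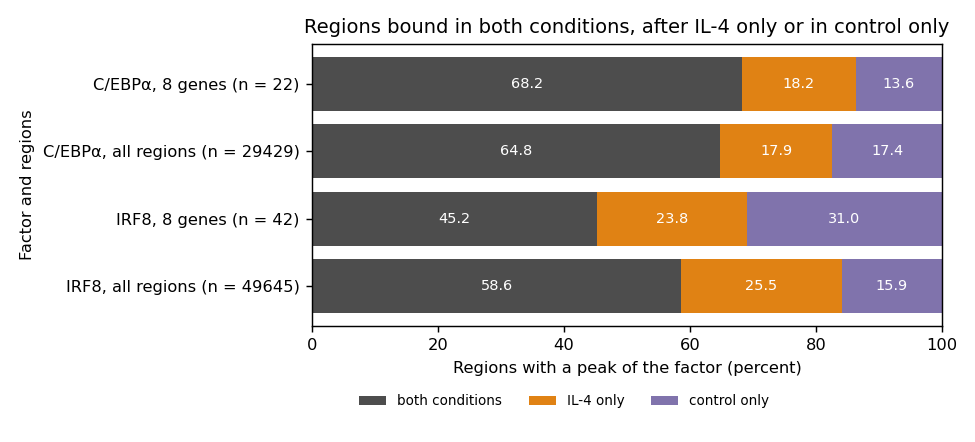
Share in percent of the regions with a peak of the factor that had it in both conditions (dark), after IL-4 only (orange) or in control only (purple), for the 8 genes and for all regions, with n the number of regions and 1 sample per condition. For IRF8 the control-only share is 31.0% at the 8 genes and 15.9% over all regions; for C/EBPα the shares of both rows are within 4 percentage points.

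Peaks listed in 1 condition only had lower median scores than those listed in both. IRF8 peaks in both conditions had a median control score of 15.26 (3.3 to 103.52), those after IL-4 only a median of 4.505 (2.14 to 28.25) and those in control only a median of 5.93 (3.57 to 19.3). C/EBPα peaks in both conditions had a median control score of 13.13 (4.59 to 61.86), those after IL-4 only a median of 9.775 (4.66 to 19.65), and those in control only scored 3.81 to 5.51. The same order held over all regions, with medians for IRF8 of 13.92, 4.99 and 5.35.

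At regions with a peak in both conditions the ratio of the scores was small for most. The C/EBPα score was higher after IL-4 at 6 of 15 regions, with a median log2 ratio of −0.22 (SD between regions 0.709), against −0.0037 over all regions. It passed 2-fold upward at 1 region and downward at 1, against 7.68% and 6.51% of all regions. The IRF8 score was higher at 15 of 19 regions (78.9%, against 55.4% of all regions), with a median log2 ratio of 0.18 (SD 0.561), against 0.083. It passed 2-fold upward at 3 regions, 2 at Jak1 and 1 at Jak2, against 11.2% of all regions, and downward at 0, against 7.9%. At the 10 regions with both factors in both conditions, the ratios had opposite signs at 6 (60%, against 43.9% of all such regions, in either direction). At all 6 IRF8 was the higher, and the share of all regions with this direction was not computed. The 6 were the Il4ra region at +3.4 kb, the Tyk2 region at +5.5 kb, the Jak2 region at −10.1 kb and the Il13ra1 regions at −29.0, −10.7 and +17.6 kb. At Il13ra1 −29.0 and −10.7 kb the IRF8 score hardly changed (19.83 to 20.27 and 62.57 to 62.91). At −10.7 kb the highest peaks of C/EBPα and IRF8 did not overlap in control.

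**Figure D5:**
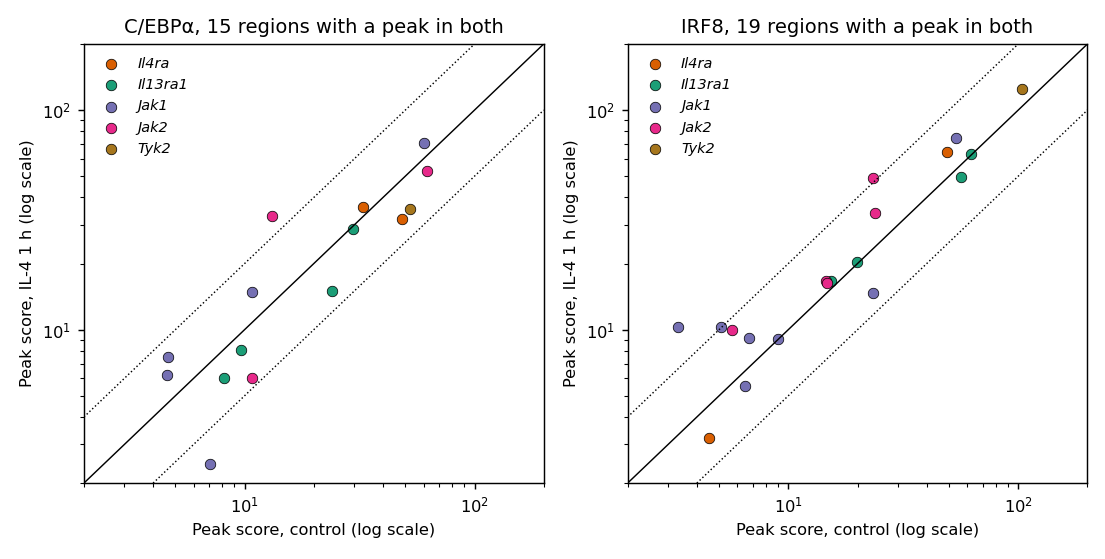
Peak score in control (horizontal) against after IL-4 (vertical), both on log axes, for the 15 C/EBPα regions and the 19 IRF8 regions of these genes with a peak in both conditions, coloured by gene. The solid line is equality and the dotted lines are 2-fold. The Jak2 region at −41.7 kb lies above the upper dotted line in both panels, and the Jak1 region at +30.7 kb lies below the lower one for C/EBPα.

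The shares of windows with each motif were read against those of all regions. A STAT6-type match was in 5 of 51 windows (9.80%, against 14.4% of all), a C/EBP match in 7 (13.7%, against 18.4%), a PU.1-IRF match in 5 (9.80%, against 10.8%) and an IRF repeat in 2 (3.92%, against 7.61%). An AP-1 match was in 10 (19.6%, against 10.9%). All 5 windows with a PU.1-IRF match were in regions with an IRF8 peak and none had C/EBPα, against 6402 (97.1%) and 1980 of the 6594 such windows in all, so the IRF8 peaks were the usual case. Of the 10 windows with an AP-1 match, 1 had a JUNB peak (10%), against 28.3% of the 6650 such windows in all. A match describes the letters and is not a shown binding site.

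Beside the receptor and kinase genes, 15 genes of signalling downstream of the receptor, such as Stat6, Irs2 and Socs1, and 29 genes of other receptor chains were counted. All 15 downstream genes had a peak, in 149 regions. C/EBPα was in both conditions at 47 of 75 regions, after IL-4 only at 25 and in control only at 3. IRF8 was in both at 70 of 117 regions, after IL-4 only at 34 and in control only at 13. Of the 29 receptor chain genes, 25 had a peak, in 185 regions. C/EBPα was in both conditions at 67 of 111 regions, after IL-4 only at 30 and in control only at 14. For IRF8 these counts were 98 of 150, 38 and 14. Over all regions with the factor, the shares in the same order were 64.8%, 17.9% and 17.4% for C/EBPα and 58.6%, 25.5% and 15.9% for IRF8. The IRF8 control-only count was thus the lowest of the 3 in both lists, and its share was 11.1% of 117 regions with IRF8 at the downstream genes and 9.33% of 150 at the receptor chains, against 15.9% of all regions. At the 8 receptor and kinase genes it exceeded the count after IL-4 only, 13 against 10, but without Il13ra1 it was again the lowest, 7 against 9. With all regions within 50000 bp of a start site taken, it was also below that count, 16 against 17. It stayed above with a score of at least 5 (9 against 5) and with lists of equal length (14 against 7). The strongest regions of the downstream genes were IRF8 regions of Grb2 (150.39 in control and 187.59 after IL-4), an adaptor, of Ptpn1 (177.48 and 176.84), a tyrosine phosphatase, and of Socs3. Those of the receptor chains were IRF8 regions of Il6ra (227.9 and 271.82), Csf3r (227.1 and 227.9) and Lifr (173.73 and 194.07), all above the 124.36 of Tyk2. The region of Socs3, an inhibitor of JAK signalling, had a C/EBPα score of 33.97 in control and 76.22 after IL-4, an IRF8 score of 70.69 and 110.86, and a JUNB score of 11.5 after IL-4 only. Like the Jak2 region at −41.7 kb, it passed 2-fold for C/EBPα, but for IRF8 it did not.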

How the data were processed

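ChIP-seq for C/EBPα, IRF8 and JUNB was done in control and IL-4-treated BMDMs, 6 samples, 1 per group. According to the study's methods and the submitters' processing notes, the authors aligned reads with BWA (0.7.10) to mm10, called peaks per sample with MACS2 (2.0.10) under a q-value limit of 0.01, removed ENCODE blacklist regions and annotated peaks with HOMER (4.2). SAMtools 0.1.19 is also named. The control library and read numbers are not given in the sources used here. The deposited score has no stated unit and was taken as a score of the peak caller. If it were −log10 of a q-value, that limit would be a score of 2, yet 1 to 48 peaks per list scored below 2, down to 1.30, so its unit stays unknown and scores are read only as an order of strength within a list and as ratios between lists. Deposited distances, in bp, and annotations were used as given. Coordinates are mm10, with the start as written, uncertain by 1 bp.

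Touching peaks of the 6 lists (at least 1 bp) were joined, and each region took the highest score per list. A region belonged to the 8 genes if at least 1 of its peaks was named for one of them. A factor's peak was in both conditions, after IL-4 only or in control only, and score ratios were computed only where both existed, with a 2-fold limit. Shares have Wilson 95% intervals over regions. Genes are from GENCODE and sequence from RefSeq, both GRCm38. Of all regions, 11 were on no reference chromosome and were left out of motif shares. With 1 sample per group no test was made. All 8 genes were described, with regions within 2000 bp of the start site, the strongest region, regions with all 3 factors and those that factors gained or lost together, and the 3 genes nearest to Il4ra. Regions beyond that rule were added after their values were seen. The members and gene lists were chosen with earlier results of these data known. Alternatives were a score of at least 5, lists of equal length, 200 bp peaks, an overlap of 50%, distances within 100000 bp, all regions within 50000 bp of a start site, scores divided by the list median and a 1.5-fold limit. The limit of 100000 bp removed no region of these genes, so that setting could not move a value. Merging and motif search were tested on simulated peaks, where 17 of 17 checks passed. Python 3.11.15, pandas 2.3.3, numpy 2.4.6, scipy 1.17.1 and matplotlib 3.10.9 were used.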

Additional observations from a re-analysis of the deposited data

Results flagged for a closer look

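At 6 regions with both factors in both conditions, the IRF8 score was higher and the C/EBPα score lower after IL-4, with 1 sample on each side, and these differences were not tested. The IRF8 log2 ratio minus the C/EBPα log2 ratio was 1.0285 at the Jak2 region at −10.1 kb, 0.9841 at Il4ra +3.4 kb, 0.8233 at Tyk2 +5.5 kb, 0.692 at Il13ra1 −10.7 kb, 0.3882 at Il13ra1 +17.6 kb and 0.0723 at Il13ra1 −29.0 kb. At Il13ra1 −10.7 kb the highest peaks of C/EBPα and IRF8 did not overlap in control. Among all 10821 regions with both factors in both conditions, 43.9% had ratios of opposite sign, in either direction. The share of them with IRF8 higher and C/EBPα lower was not computed. The median log2 ratio over all regions was higher for IRF8 (0.083) than for C/EBPα (−0.0037).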

How the results depend on the processing

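Of 41 comparisons of a main value with an alternative, 40 were called unmoved, and no median ratio changed direction. Shares and median ratios moved by less than the interval or SD of the main value. Counts have no such spread. The 51 regions of these genes became 40 with a score of at least 5 and 73 within 50000 bp, and were still called unmoved. The distance limit of 100000 bp removed no region, and the JUNB share rested on 1 region. The 1 comparison called moved was the count of regions with all 3 factors. It went from 1 to 0 when the lists of each factor were brought to equal length, since the JUNB control peak at Il13ra1 then dropped out. Among further counts of regions in 1 condition only or past the fold limit, 10 comparisons moved and 50 did not. The share of IRF8 regions with a peak in both conditions was 43.2% to 54.8% and that of C/EBPα 60% to 68.2% over the alternatives. IRF8 regions with a peak after IL-4 only numbered 5 with a score of at least 5, against 10. They numbered 17 when all regions within 50000 bp of a start site were taken. In the same settings, IRF8 regions in control only numbered 9 and 16, against 13. C/EBPα regions after IL-4 only numbered 9 when all regions within 50000 bp were taken, against 4. C/EBPα regions past 2-fold went from 2 to 1 with a score of at least 5 and with lists of equal length, since the IL-4 peak at Jak1 +30.7 kb dropped out. With a 1.5-fold limit, 6 C/EBPα and 5 IRF8 regions were past it, against 2 and 3. IRF8 regions past 2-fold numbered 6 when all regions within 50000 bp of a start site were taken, against 3. They numbered 2 with a score of at least 5, since the control peak at Jak1 +66.7 kb dropped out. At the 7 genes other than Il13ra1, an alternative chosen after seeing the data, IRF8 was in control only at 7 of 31 regions (22.6%). No paired analysis was possible because each group had 1 sample. A median JUNB ratio could not be computed, since no JUNB region had a peak in both conditions. Depth was unknown, so a missing peak may be a peak under the caller's limit.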
